A study of Mus musculus with 2 samples.

Results

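Cytosine positions of CpGs that were partly methylated in both wt and βerko MEFs are described here. A position belonged to them if its methylation was from 20 to 80 % in wt and also from 20 to 80 % in βerko MEFs, both bounds included. The members were thus chosen by the methylation values themselves, and 60528 of the 826937 positions covered in both libraries met the rule, which is 7.32 % (95 % Wilson interval 7.26 to 7.38 %). They belonged to 57926 of 756270 covered CpGs, since the cytosines on both strands of a CpG count as separate positions.

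Reduced representation bisulfite sequencing (RRBS) was carried out on embryonic fibroblasts of the strain C57BL/6, either of the genotype wildtype (wt) or ESR2 -/- (βerko), which lacks oestrogen receptor β. Each cell type gave 1 library, made from DNA that had been pooled from 3 batches, so there were no replicates. Both cell types were grown in the same medium and neither was treated. For RRBS, the enzyme MspI cuts DNA at CCGG, and short fragments are selected and treated with bisulfite, which converts unmethylated cytosines and leaves methylated ones to be read as cytosine.

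In mammals, most CpGs are methylated on both strands, while CpG-rich promoters are usually free of methylation. Intermediate values are known from imprinted regions, where the copy from 1 parent is methylated and the other is not, and from sites at which cells of a culture differ. Bisulfite sequencing reports an average over molecules, so that a share of cells, a difference between alleles and a mixture of both cannot be told apart in these values. Neither can methylcytosine and hydroxymethylcytosine.

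Because each cell type had 1 library, no test between wt and βerko was possible, and no p-value is given. Values are set side by side as a description of these libraries. The number of reads behind each position is unknown here, except at differentially methylated positions (DMPs), so intervals are given only for shares of positions, and they cover counting error only. Positions next to each other can lie in the same reads and are not independent of each other.

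Among these positions, 261 long runs were found, with at least 10 partly methylated positions each and no gap above 100 bp. The sequences of 8 of them are given first, because the results on runs turn on them. All are from the plus strand of the genome build NCBIM37 (mm9). Capitals mark the partly methylated positions, as C where the cytosine is on the plus strand and as G where it is on the minus strand.

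The run with the most positions lay in an exon of Sobp, which encodes a nuclear zinc finger protein needed in the inner ear. The stretch of the run that was richest in them, chr10:42741216-42741510, holds 43 of its 65 partly methylated positions and 49 CpGs.
Sobp: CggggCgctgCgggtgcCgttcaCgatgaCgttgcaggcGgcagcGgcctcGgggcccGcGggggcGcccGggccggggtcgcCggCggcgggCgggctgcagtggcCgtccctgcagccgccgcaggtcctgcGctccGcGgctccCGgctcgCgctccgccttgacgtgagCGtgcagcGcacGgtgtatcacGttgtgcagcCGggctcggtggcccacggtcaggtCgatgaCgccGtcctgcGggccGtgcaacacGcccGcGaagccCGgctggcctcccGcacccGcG

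Runs with a large difference between wt and βerko MEFs are shown next. The first is chr10:55835268-55835365 in an exon at Msl3l2, a relative of the chromatin protein Msl3, and it also overlaps D630037F22Rik. The second is chr6:23199557-23199711 near Fezf1, a zinc finger gene of the developing forebrain. The last is chr8:94329304-94329593 in an exon of the non-coding gene D230002A01Rik. The first and the second had less methylation in βerko, the last more.
Msl3l2: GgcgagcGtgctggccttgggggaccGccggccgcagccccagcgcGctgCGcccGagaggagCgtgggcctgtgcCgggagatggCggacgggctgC
near Fezf1: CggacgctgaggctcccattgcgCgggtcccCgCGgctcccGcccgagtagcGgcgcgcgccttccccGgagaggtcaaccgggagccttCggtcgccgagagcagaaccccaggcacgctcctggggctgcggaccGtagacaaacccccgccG
D230002A01Rik: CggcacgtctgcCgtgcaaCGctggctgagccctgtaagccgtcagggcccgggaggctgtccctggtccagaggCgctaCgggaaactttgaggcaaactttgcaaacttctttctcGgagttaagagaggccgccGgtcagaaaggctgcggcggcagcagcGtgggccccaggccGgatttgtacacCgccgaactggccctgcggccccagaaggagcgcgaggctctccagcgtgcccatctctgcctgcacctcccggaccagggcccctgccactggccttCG

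Runs with the most even values are shown last. They are chr10:12810868-12810933 at the promoter of Plagl1, chr17:12935215-12935287 in an intron of Igf2r that also lies within Airn, chr17:37084088-37084131 in an exon of Rnf39 and chr15:72640130-72640234 in an intron of Trappc9.
Plagl1: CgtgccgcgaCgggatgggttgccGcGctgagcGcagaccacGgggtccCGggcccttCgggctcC
Igf2r: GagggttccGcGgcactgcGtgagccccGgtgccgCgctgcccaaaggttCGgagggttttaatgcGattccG
Rnf39: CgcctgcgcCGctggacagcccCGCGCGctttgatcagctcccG
Trappc9: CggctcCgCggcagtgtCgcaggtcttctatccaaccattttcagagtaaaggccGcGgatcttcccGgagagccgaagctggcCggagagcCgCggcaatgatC

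The 8 stretches are all GC-rich, from 61.9 % G and C at Trappc9 to 79.6 % at Msl3l2. MspI sites number 6 in the Sobp stretch, 4 in that of D230002A01Rik and none in that of Rnf39.

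Partly methylated positions made up a minority of all positions in either library. Below 20 % in both were 395651 positions (47.8 %), and above 80 % in both were 216491 (26.2 %). Of the 142556 positions that were partly methylated in wt MEFs, 42.5 % were also partly methylated in βerko, 29.5 % were above 80 % and 28.03 % were below 20 %. Of the 124696 positions partly methylated in βerko MEFs, 48.5 % were partly methylated in wt. By comparison, 95.2 % of the positions below 20 % in wt were also below 20 % in βerko, and 80.5 % of those above 80 % were above it in both. A value between the bounds in 1 library was therefore more often outside them in the other library than inside.

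Within the bounds, the values filled the whole range in both libraries. In wt MEFs the mean was 51.8 % with an SD over positions of 17.7, the median was 52.2 % and the quartiles were 37.0 and 66.7 %. In βerko MEFs the mean was 50.5 % with an SD of 18.4, the median was 50 % and the quartiles were 33.9 and 66.7 %. The bin of 10 points with the most positions in both libraries was that from 70 to 80 %, with 20.8 % of positions in wt and 20.5 % in βerko. This bin alone included both of its ends. It thus held the values of exactly 80 %, found at 1592 positions in wt and 1289 in βerko. Without them it would have been about level with the next fullest bin in each library, so its lead rested largely on the bin edge. The largest gap between the libraries was in the bin from 20 to 30 %, with 14.7 % of positions in wt and 18.4 % in βerko. A value of exactly 50 % was found at 2608 positions (4.31 %) in wt and 2233 (3.69 %) in βerko, which shows as bright lines in the map of both libraries.

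**Figure D1:**
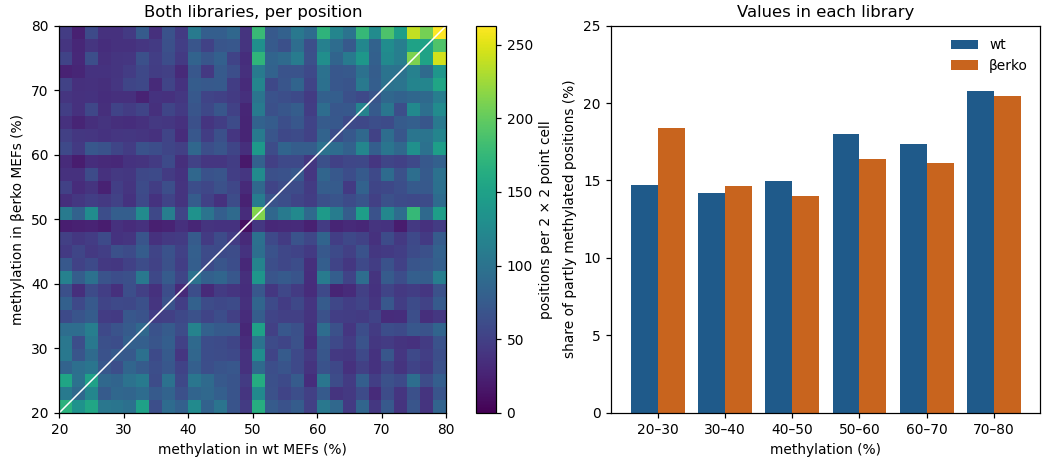
The left panel counts partly methylated positions by methylation in wt (x axis, %) and βerko MEFs (y axis, %) in cells of 2 by 2 points, with equal values on the white line, and the right panel gives the share of positions per bin of 10 points in each library. Positions fill the whole square, with lines at 50 % and the fullest cells near 80 % in both libraries. The last cells and the last bin also include the values of exactly 80 %, which adds to their counts.

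Values lay on both sides of each bound. With the other library within the bounds, 4556 values lay from 20 to 22 %, just inside the lower bound, and 3235 from 18 to 20 %, just outside. At the upper bound, 6034 values lay from 78 to 80 % and 4048 from 80 to 82 %. The windows just inside include the bounds themselves, and those just outside do not. Exactly 20 % was the value at 887 positions in wt and 1027 in βerko, and exactly 80 % at 1592 and 1289. Without the values at the bounds, each window just inside held fewer positions than the one just outside. In the authors' classes, a value of exactly 20 % counts as unmethylated, which concerned 1873 of the 60528 positions. By these classes, 29.9 % of the positions were highly methylated (50 to 80 %) in both libraries and 26.7 % lowly methylated (20 to 50 %) in both. A further 21.4 % were high in wt and low in βerko, and 19.0 % were low in wt and high in βerko.

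Agreement between the libraries was weak within the bounds. Across the 60528 positions, Pearson's r and Spearman's rho were both 0.23, against 0.90 and 0.88 over all covered positions. These coefficients are across positions that share their 2 libraries, and the first pair is limited by the bounds. The median absolute difference was 15 percentage points. It was below 10 points at 21607 positions (35.7 %), below 20 points at 37308 (61.6 %) and at least 40 points at 5141 (8.49 %). Over all covered positions, 82.8 % differed by less than 20 points. Between 40 and 60 % in both libraries were 7002 positions, or 11.6 %.

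The mean difference, βerko minus wt, was −1.28 points with an SD over positions of 22.4, and the quartiles were −16.4 and 13.6 points. Methylation was lower in βerko by at least 20 points at 12542 positions (20.7 %), where 10.4 % of all covered positions were lower by as much. It was higher by at least 20 points at 10678 positions (17.6 %), where 6.81 % of all covered positions were. Since the same values chose the members, these shares are a description only.

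The opposite strand of a CpG gives a measurement that the choice of a position did not use, as it is read from other DNA strands of the same libraries. Both strands were covered at 70667 CpGs, and at 4977 of them the plus-strand position was partly methylated in both libraries. At 52.3 % of these (95 % Wilson interval 50.9 to 53.7 %), the minus-strand position also was. Where the plus-strand position was not a member, only 3.52 % of 65690 minus-strand positions were. Beside a plus-strand member, the minus-strand position was methylated at 52.6 % in wt and 47.4 % in βerko MEFs on average. It was between the bounds at 68.6 % of CpGs in wt and 66.4 % in βerko, below them at 13.04 and 18.6 %, and above them at 18.4 and 15.1 %. The median absolute difference between the strands was 13.4 points in wt and 12.5 points in βerko, and r between the strands was 0.50 and 0.54. Between the libraries, r was 0.56 over these minus-strand positions, whose own values were not bounded by the choice, and 0.23 over the plus-strand members. The median absolute difference between the libraries was 16.6 points on the minus strand and 15.0 points on the plus strand.

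Differences between wt and βerko were also seen on the opposite strand. At 1214 of these CpGs, the plus strand was lower in βerko by at least 20 points, with a mean difference of −33.2 points. The minus strand then differed by −26.4 points on average and was lower at 86.2 % of them. At 690 CpGs, the plus strand was higher in βerko by at least 20 points, with a mean difference of 31.8 points. The minus strand then differed by 19.6 points and was higher at 77.97 %. Over all 4977 CpGs, 54.9 % of minus-strand positions were lower and 39.8 % higher in βerko.

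Partly methylated positions lay in other places than positions below 20 % in both libraries, and the location was not used by the rule. Promoters were taken to reach from 500 bp before a transcript start of any gene to 100 bp after it. In promoters lay 13.6 % of the partly methylated positions (13.3 to 13.9 %), against 51.8 % of those below 20 % in both, 4.51 % of those above 80 % in both and 29.7 % of all covered positions. Exons held 19.8 %, introns 27.7 % and intergenic DNA 38.9 % of the partly methylated positions. Of all covered positions, 21.6 % were intergenic. In turn, 13.2 % of the covered intergenic positions were partly methylated in both, compared with 7.37 % in introns, 6.84 % in exons and 3.34 % in promoters. The median distance to the nearest transcript start of a protein-coding gene was 9727 bp. It lay between the 193 bp of positions below 20 % and the 15115 bp of positions above 80 %. Neighbouring positions share a place, so these shares were not tested.

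CpG density was counted as the CpGs within 100 bp on either side, the position's own included. Its median was 8 CpGs for partly methylated positions, 22 for positions below 20 % in both and 6 for those above 80 % in both. The share that was partly methylated in both was 11.8 % at 1 to 4 CpGs and 3.65 % at 17 or more, and it was lower in each denser bin. Mean methylation of the partly methylated positions in wt MEFs stayed between 49.3 and 53.3 % over the 5 bins. In βerko MEFs it was 55.2 % at 1 to 4 CpGs and 41.5 % at 17 or more. The difference, βerko minus wt, was accordingly 3.67 points in the sparsest and −7.84 points in the densest bin. Over all covered positions, the difference was 2.44 points in the sparsest and −3.22 points in the densest bin, and −4.59 points at 13 to 16 CpGs. By feature, the difference of the partly methylated positions was −6.06 points in promoters, −4.81 points in exons, −0.32 points in introns and 1.49 points in intergenic DNA. Over all covered positions it was −2.42 points in promoters, −3.71 points in exons, −1.37 points in introns and −0.06 points in intergenic DNA. In intergenic DNA there was thus hardly a difference over all covered positions.

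**Figure D2:**
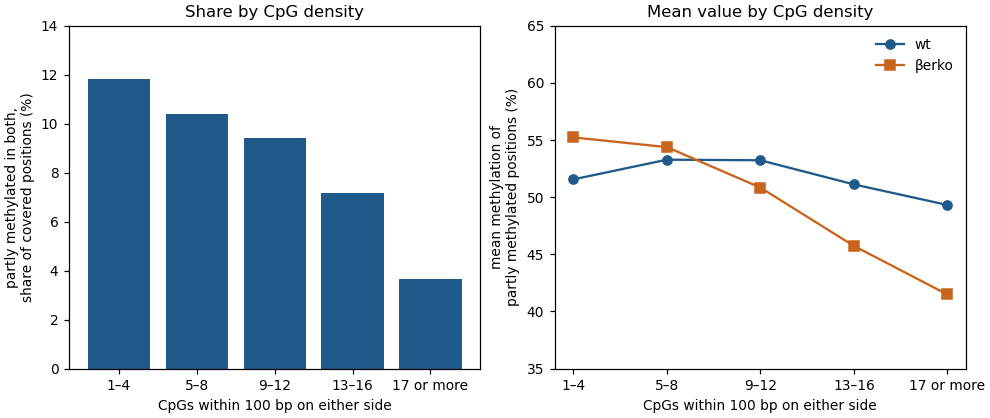
The left panel gives the share of covered positions that were partly methylated in both libraries by the number of CpGs within 100 bp on either side, and the right panel gives the mean methylation of these positions in wt and βerko MEFs (%, axis from 35 to 65 %). The share is lower at higher density, the wt mean stays near 50 %, and the βerko mean lies above wt at 1 to 8 CpGs and below it at 9 or more.

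The positions were spread over all nuclear chromosomes. The share of covered positions that were partly methylated in both ran from 6.19 % on chromosome 16 (5.89 to 6.51 %) to 8.22 % on chromosome 2 (8.02 to 8.44 %) among the autosomes. On chromosome X it was 7.80 % (1304 of 16707 positions, 7.41 to 8.22 %), within the range of the autosomes. At promoters it was 3.03 % on chromosome X and 3.35 % on the autosomes. On chromosome Y it was 20 %, but with 29 of 145 positions and an interval from 14.3 to 27.3 %. None of the 12 covered mitochondrial positions was partly methylated in both. The mean difference between the libraries was from −2.73 points on chromosome 14 to 0.00 points on chromosome 4 among the autosomes, and 1.14 points on chromosome X.

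**Figure D3:**
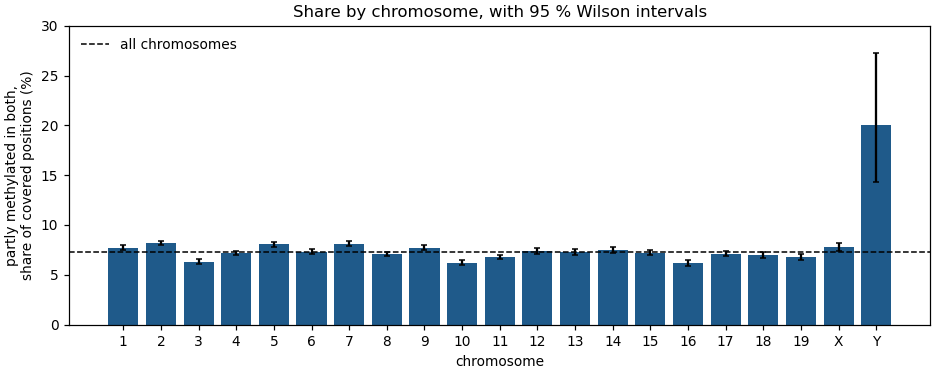
Bars give the share of covered positions on each chromosome that were partly methylated in both libraries (%), with 95 % Wilson intervals, and the dashed line is the share over all chromosomes, 7.32 %. The autosomes and chromosome X lie between 6.19 and 8.22 %, and chromosome Y is higher with few positions and a wide interval.

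On a finer scale the share varied more. Of windows of 1 Mb with at least 200 covered positions there were 1334, and their median share was 5.88 %. The highest share was 32.9 % (70 of 213 positions) in chr5:127000001-128000000, which held both long runs of Tmem132c. Another window with a high share was chr14:80000001-81000000, with 31.6 % and a long run at Pcdh8, a protocadherin gene. The lowest share was 0.219 %, with 1 of 456 positions, in chr19:32000001-33000000, where no long run was found.

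Partly methylated positions also lay next to each other. Of the other covered positions within 100 bp of one of them, 29.3 % were partly methylated in both as well, compared with 4.94 % around all covered positions. Even so, 27603 of the 60528 (45.6 %) had no other one within 100 bp, and 28947 (47.8 %) were in groups of 2 to 9. The remaining 3978 (6.57 %) formed the long runs. Values of neighbouring members were closer at short distance. The median absolute difference between adjacent members in wt MEFs was 11.7 points at 1 to 10 bp and 17.1 points at over 500 and up to 5000 bp, and in βerko MEFs it was 11.8 and 17.2 points.

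No DMP can be a member, because a DMP is below 20 % in 1 library and above 80 % in the other. The deposited DMP tables used here hold 5787 hypomethylated and 1960 hypermethylated DMPs, fewer than the 6016 and 2055 positions that met the methylation bounds in the common table. Within 100 bp of a DMP that was hypomethylated in βerko lay 3202 partly methylated positions, which is 5.29 % of them against 2.94 % of all covered positions. They averaged 56.1 % in wt and 40.2 % in βerko MEFs. Near hypermethylated DMPs lay 685, or 1.13 % against 0.730 %, with means of 45.2 % in wt and 53.9 % in βerko MEFs. On average, the partly methylated neighbours of DMPs differed in the direction of the DMP. Near hypomethylated DMPs lay 0.687 % of the positions below 20 % in both and 0.742 % of those above 80 % in both. Covered positions outside these classes and the members, which include the DMPs themselves, had a larger share there than the members. Lying near hypomethylated DMPs was thus not particular to partly methylated positions.

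The 261 long runs had from 10 to 65 partly methylated positions, with a median of 13, and 46 had at least 20. They were from 25 to 769 bp long, with a median of 220 bp. Their partly methylated positions belonged to 6 to 61 different CpGs, and to fewer than 10 in 62 runs. Few runs were made of partly methylated positions alone. Over the runs, a median of 54.5 % of the covered positions were partly methylated in both, 29 runs had at least 80 % and 4 runs had 100 %. The 4 were at Apba2, Trappc9, Nr2e1 and Tnfaip2.

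Long runs lay in denser and more gene-bound DNA than the other partly methylated positions. The median CpG density was 24 CpGs in runs and 7 outside. Promoters held 35.4 % of the positions in runs and 12.04 % of those outside, and exons 40.4 and 18.4 %. Intergenic DNA held 10.7 % in runs and 40.9 % outside. Of the 261 runs, 160 were within 1000 bp of a transcript start of a protein-coding gene, and 220 overlapped a gene. As a background, 52.1 % of all covered positions were within 1000 bp of such a start. Promoters held 29.7 % and intergenic DNA 21.6 % of all covered positions. Chromosomes 2 and 7 had 28 runs each. Chromosome X had 2, at Fgf16 and near Esx1, and chromosome Y had none. A run needs closely spaced CpGs, so that its density and place are in part set by its definition.

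Runs had less methylation in βerko than in wt MEFs more often than the reverse. The mean over their 3978 positions was 50.4 % in wt and 42.7 % in βerko, a difference of −7.69 points, whereas outside the runs the means were 51.9 and 51.1 %. The mean was lower in βerko in 196 runs (75.1 %) and higher in 65. It was lower by at least 10 points in 116 runs and higher by as much in 14, and for 20 points the counts were 31 and 3. In 9 runs every partly methylated position was lower, and in none was every one higher. At a density of 17 CpGs or more, the difference was −8.39 points in runs (3372 positions) and −7.64 points outside runs (9509 positions), so that the runs differed little from other partly methylated positions in equally dense DNA.

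**Figure D4:**
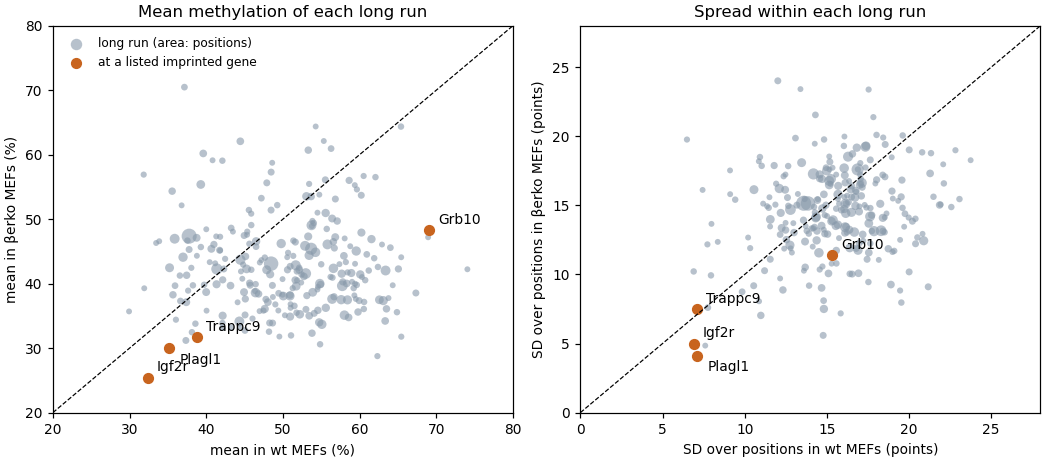
Each point is a long run, with the area of grey points set by the number of positions and orange points of 1 size, and the left panel gives its mean methylation in wt (x axis, %) and βerko MEFs (y axis, %), while the right panel gives the SD over its positions in points. Most runs, 196 of 261, lie below the dashed line of equal means, and 3 of the 4 runs at genes of the imprinted list, in orange, lie in the lower left corner of both panels.

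The covered positions around the runs were compared with all covered positions inside them, members or not. A run starts and ends at a member, and its members were chosen by their values, while the flanks were not. The comparison is therefore in part set by the rule. For 218 runs with at least 5 covered positions within 500 bp on either side, the median of the flank means was 43.9 % in wt and 29.7 % in βerko MEFs, against 50.7 and 39.3 % for all covered positions inside these runs. The flank mean was below that of the run in 137 of the 218 runs in wt and in 137 in βerko, and at Cdh4, for example, it was above it. Across runs, the means in wt and βerko were hardly related, with r = 0.02 and rho = 0.02 over 261 runs, which share the 2 libraries. The means are over positions held within the bounds in both libraries, which limits these coefficients too.

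The largest run, at Sobp (chr10:42741189-42741957), went against the majority. Of its 100 covered positions 65 were partly methylated in both, all in an exon. They averaged 37.8 % in wt, with an SD over positions of 13.6 and a range from 20 to 78.3 %, and 47.4 % in βerko with an SD of 15.2 and a range from 24.4 to 80 %. Values were higher in βerko at 47 positions and lower at 18. The libraries overlapped widely, and the covered positions between the members reached from 0 to 100 %, as the map of this run shows.

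Aldh1a2, which encodes a retinaldehyde dehydrogenase that makes retinoic acid, had the second run (chr9:71063266-71063960), over its promoter and the intron beside it, with 60 of 93 covered positions. The mean was 48.5 % in wt and 43.1 % in βerko, with SDs of 13.9 and 15.1, and 35 positions were lower in βerko and 24 higher. The next runs were at Gdf10, a gene of the TGF-β family, with 42 positions, and at Grik3, a kainate receptor gene, with 36. Means were 53.7 % in wt and 45.4 % in βerko at Gdf10, and 41.4 and 42.3 % at Grik3. The SDs over positions were 14.2 and 17.3 at Grik3.

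At Cdh4, which encodes R-cadherin, 33 of 75 covered positions near the transcript start formed a run at 57.7 % in wt and 39.7 % in βerko on average, and 27 of them were lower in βerko. Otud7a, a deubiquitinase gene, had 33 positions with means of 53.0 and 41.6 %. Lhx8, a LIM homeobox gene of forebrain neurons, had 30 positions, all in its promoter, with means of 44.5 and 43.7 %. The run in an exon of Tmem132e had 29 positions with means of 51.7 and 42.8 %. Fam19a5, a gene for a secreted brain protein, and Tmem229a had 28 positions each. Their means were 52.9 and 45.9 % at Fam19a5 and 53.7 and 49.1 % at Tmem229a. With 28 positions there were 7 runs, of which these are the 2 shortest.

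The 5 runs with the largest mean difference were named from that difference, which is therefore a description. At Msl3l2, 11 positions averaged 65.4 % in wt, from 52.4 to 75 %, and 31.8 % in βerko, from 20 to 50 %. The other covered positions of this run reached down to 19.05 % in wt and up to 84.1 % in βerko, so that the libraries overlapped, and all 22 averaged 68.9 and 32.6 %. The run near Fezf1, at 1293 bp from a transcript start, had 11 positions with means of 62.3 and 28.8 %, and all 11 were lower in βerko. Between genes, near 1700067P10Rik (chr17:48168432-48168783), 10 positions had means of 74.1 and 42.2 %, and all 10 were lower. At Zfp783, a zinc finger gene, 12 positions had means of 64.9 and 35.6 %.

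The run of D230002A01Rik, 3751 bp from a transcript start of the Iroquois homeobox gene Irx3, differed in the opposite direction. Its 13 positions averaged 37.2 % in wt, from 20.6 to 80 %, and 70.5 % in βerko, from 44 to 80 %. Methylation was higher in βerko at 12 of the 13. All 30 covered positions of this stretch, members or not, averaged 30.9 % in wt and 72.3 % in βerko. In the sequence of this run, the members are thinly spaced, with 13 in 290 bases and 23 CpGs.

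The most even runs were short. Evenness was ranked by the mean of the SDs over positions in wt and βerko, which had a median of 15.0 points over the 261 runs and a lowest value of 5.62 points at Plagl1. The SDs are over partly methylated positions only, whose values the rule bounded. A run with a mean near a bound has less room to spread, so the ranking is in part set by the rule. Plagl1 encodes a zinc finger protein and is an imprinted gene whose paternal copy is expressed. Of 12 covered positions at its promoter, 10 were partly methylated in both, which averaged 35.1 % in wt (SD 7.1, from 21.4 to 46.2 %) and 30.0 % in βerko (SD 4.1, from 23.9 to 36.1 %). The remaining 2 positions had 19.3 and 16.4 % in wt and 25.4 % each in βerko, just outside the lower bound in wt.

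The second most even run lay within Igf2r, whose receptor clears insulin-like growth factor 2, and within Airn, the non-coding RNA that silences the paternal Igf2r copy. It had 10 of 12 covered positions, with means of 32.4 % in wt (SD 6.9) and 25.4 % in βerko (SD 5.0), and all 10 were lower in βerko. The remaining positions of this run had 23.3 and 17.2 % in wt and 17.8 and 20.0 % in βerko. Rnf39, a RING finger gene, came next with 10 of 11 positions, and the 10 belonged to only 6 CpGs. Its means were 65.4 % in wt (from 53.3 to 80 %) and 44.1 % in βerko (from 39.0 to 52.3 %), so that the libraries did not overlap. The remaining position had 74.0 % in wt and 14.9 % in βerko. At Pgam1, a glycolysis gene, 13 positions had means of 49.4 and 38.5 %. The 5 other covered positions of this run were at 0 % in βerko and from 0 to 42.9 % in wt, and all 18 averaged 43.6 and 27.8 %, while the flanks of this run were at 3.57 % in wt and 0.316 % in βerko.

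At Trappc9, all 11 covered positions in an intron were partly methylated in both. The mean was 38.8 % in wt (SD 7.1, from 29.3 to 53.4 %) and 31.8 % in βerko (SD 7.5, from 24.2 to 44.8 %), and the 4 covered positions around it were at 2.15 and 12.1 %. The first 4 cytosines of the printed sequence in capitals had the same value in βerko, 24.2 %, and positions as close as these can be covered by the same reads. This intron region is known for the imprinted gene Peg13, which is not in the gene models used here.

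**Figure D5:**
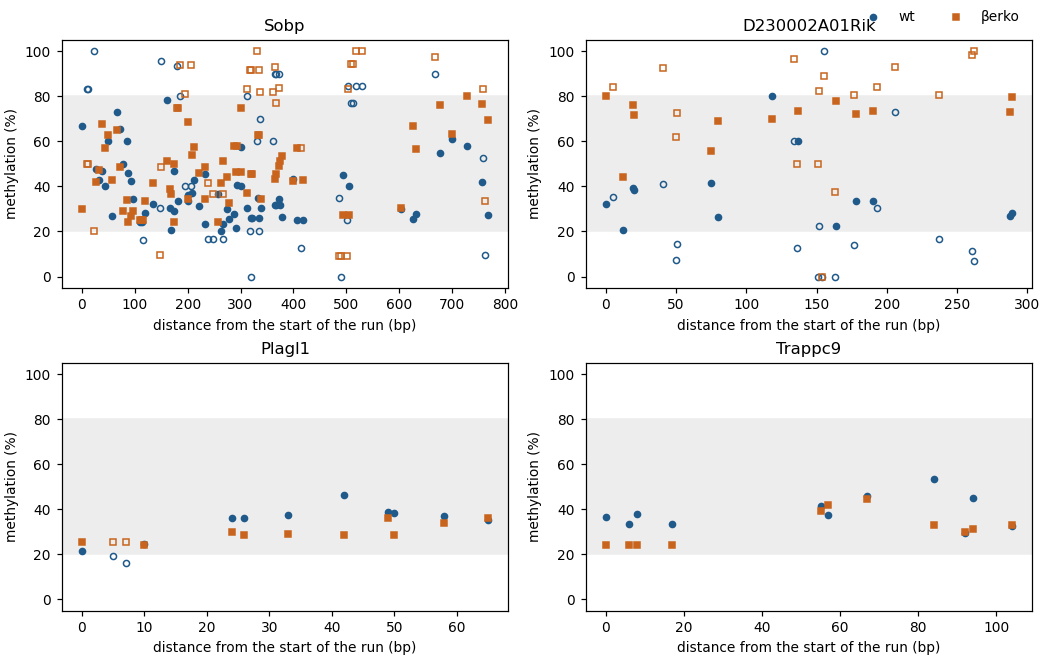
Methylation (%) of every covered position is plotted against the distance from the start of the run in bp for the long runs at Sobp, D230002A01Rik, Plagl1 and Trappc9, with wt as blue circles and βerko as orange squares, filled for positions partly methylated in both libraries and open for others, and with the range from 20 to 80 % in grey. Values at Plagl1 and Trappc9 stay between 16.4 and 53.4 %, while those at Sobp run from 0 to 100 %.

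Because imprinted genes are the textbook case of partial methylation, a list of 48 was examined, and 44 of them had covered positions. Of their 1941 covered positions, with 5000 bp upstream included, 328 were partly methylated in both, which is 16.9 % (15.3 to 18.6 %) against 7.32 % of all covered positions. The mean of the 328 was 48.9 % in wt and 41.01 % in βerko MEFs. At least 1 such position was found at 36 of the 44 genes. The list was chosen with earlier results in view, its genes overlap in part, and no test was run on it.

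Long runs at the list were 4, at Plagl1, at Igf2r and Airn, at Trappc9 and at Grb10, an adaptor of the insulin receptor. The Grb10 run (chr11:11926188-11926472) was unlike the other three, with 13 of 38 covered positions at means of 69.1 % in wt and 48.4 % in βerko. The most positions without a long run were at Gnas, the gene of the stimulatory G protein, with 71 of 301, and at the overlapping Nespas, with 56 of 134. The Gnas positions had means of 48.6 and 42.2 %. At Mcts2, 9 of 16 positions were partly methylated, at 25.4 % in wt and 26.3 % in βerko. Rasgrf1 had 19 of 38, with means of 56.2 and 44.3 %. The list is not complete. Long runs outside it lay at the imprinted gene Zdbf2, with 14 positions and means of 48.3 and 33.9 %, near Zdbf2, with 14 positions and means of 54.1 and 35.4 %, and near Kcnk9, with 25 positions and means of 57.6 and 37.5 %.

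The direction was not the same at all imprinted genes. H19, the maternally expressed non-coding RNA next to Igf2, had 5 of 10 positions, which averaged 31.0 % in wt (SD 5.6) and 59.5 % in βerko (SD 14.3). At Nap1l5, within Herc3, 4 positions had means of 72.4 % in wt and 29.6 % in βerko. Igf2 itself had 20 of 97 positions, with means of 42.0 and 40.1 %. Kcnq1 had 24 of 139, with 49.1 and 45.3 %, and Cdkn1c, a cell cycle inhibitor gene of the same domain, had 22 of 86, with 59.4 and 45.0 %. The 8 covered genes without a partly methylated position were Peg3 (8 covered positions), Copg2 (64), Sgce (10), Ndn (3), Peg12 (77), Ube3a (28), Rtl1 (14) and Xist (1). Of these, Copg2 and Ube3a had means below 5 % in both libraries.

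A pair of other lists was treated in the same way. Of 496 covered positions at 18 germline genes, 21 were partly methylated in both, or 4.23 % (2.79 to 6.39 %). Of the 21, 11 formed the long run at the promoter of Dazl, a germ cell RNA-binding protein gene, with means of 51.9 % in wt and 40.5 % in βerko. Of 2318 covered positions at 39 Hox genes, 273 were partly methylated in both, or 11.8 % (10.5 to 13.2 %), and 30 of the genes had at least 1. Hoxd3 had 55 of 171, with means of 43.4 % in wt and 58.5 % in βerko, and Hoxc5 had 31 of 87, with means of 50.6 and 54.4 %. Hoxb4 had 27 of 85, with means of 47.1 and 39.6 %. The 273 positions had a mean difference of 1.42 points. All 2318 covered positions, in contrast, averaged 30.8 % in wt and 25.99 % in βerko, and the members at Hoxd3 and Hoxb4 differed in opposite directions.

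The genes with the most partly methylated positions were mainly long genes. Gm20388 had 458, but its gene model spans chr8:122434741-126869622 and holds other genes, and its share of 7.05 % was close to that of all positions. Likewise the gene model of Fgfr2, a fibroblast growth factor receptor gene, had 94 of 1604 positions. Cdh4 had 104 of 291 positions (35.7 %) with means of 56.2 and 46.8 %. Sdk2, a cell adhesion gene, had 102 of 286 (35.7 %) with means of 55.1 and 46.1 % and 3 long runs that overlap the gene. Aldh1a2 had 74 of 129 (57.4 %), and 72 of these were in its 2 long runs.

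The others in this group were Fam19a5 with 88 positions, Grik3 with 83, Rbfox3 with 78, Gm20398 with 76 and Ajap1 with 73. Rbfox3, which encodes a neuronal splicing factor, had no long run, and its means were 45.7 % in wt and 51.6 % in βerko. Ajap1, an adherens junction gene, had means of 55.0 and 47.4 %. Gm20398, a non-coding gene that overlaps the Hoxc cluster, had means of 50.8 and 53.1 % and no long run.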

How the data were processed

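DNA methylation was measured by RRBS in 1 library each of wt and βerko MEFs, with fragments of MspI-digested DNA sequenced on an Illumina Genome Analyser IIx. The submitters' processing notes name CASAVA 1.4 and the build mm9. Mapping by the authors was done on the Genomatix Mining Station, for which the version is not given in the sources used here. For each position covered in both libraries, the authors deposited the percent of methylated reads, without coverage, and with their classes of methylation. They also deposited tables of DMPs with whole read counts, where coverage ranged from 5 to 259 reads in wt and from 5 to 159 reads in βerko MEFs. Coverage was not used at other positions, so the depth per library is unknown here.

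All 826937 positions were CpG cytosines of NCBIM37. Features were assigned from GENCODE gene models of that build in the order promoter, exon, intron, intergenic. The percent values were used as deposited. Intervals are 95 % Wilson intervals. PCR reads without molecular identifiers are not independent molecules. Long runs were named by the gene they overlap, or else by the protein-coding gene with the nearest transcript start.

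The members, gene lists and rules were chosen with earlier results of these data known. Named were the 10 long runs with the most positions, ties going to the shorter run, the 5 with the largest difference and the 5 with the smallest spread, all long runs at the list of imprinted genes, and the 10 genes with the most positions. Single genes of the lists, Zdbf2 and Kcnk9, genes of the chromosome X runs, of the runs without other covered positions and of the windows were named after their values were seen. The bounds, strands, chromosomes, promoter size and definition of runs were varied. The run finder was tested on simulated data. Tables were handled in pandas 2.3.3 and NumPy 2.4.6 under Python 3.11.15. The genome was read through pysam 0.24.0, and plots were drawn in matplotlib 3.10.9. Wilson intervals came from SciPy 1.17.1.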

Additional observations from a re-analysis of the deposited data

How the results depend on the processing

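Of 71 values recomputed under other settings, 37 stayed within their counting error or within 1.5 times the reported count, and 34 moved. None of the settings turned the majority of long runs from lower to higher in βerko. With bounds of 30 and 70 %, 24775 positions were partly methylated in both. Long runs numbered 123 with bounds of 25 and 75 %, 38 with 30 and 70 %, 172 with gaps of at most 50 bp, 1328 with at least 5 positions, 46 with at least 20 positions and 29 with at least 80 % of covered positions partly methylated. In the same order they held 1787, 499, 2363, 10601, 1234 and 373 positions, and 6261 with gaps of at most 200 bp. The share of positions within 20 points was 67.4 % with 25 and 75 %, 78.05 % with 30 and 70 %, 62.9 % without the bounds themselves, 62.3 % with strands merged and 62.2 % with the classes of the authors. Pearson's r was 0.15 with 25 and 75 %, 0.11 with 30 and 70 % and 0.21 without the bounds themselves. The promoter share was 13.1 % with 30 and 70 %, 13.3 % both with strands merged and with the classes of the authors, and 25.2 % with promoters of 1000 bp before and 500 bp after a transcript start. Long runs at imprinted genes numbered 0 with 25 and 75 %, with 30 and 70 % and with at least 20 positions, 2 without the bounds themselves and with strands merged, and 19 with at least 5 positions. The share of long runs with a lower mean in βerko was 82.6 % among runs of at least 20 positions and 62.1 % among those with at least 80 % of covered positions partly methylated. Narrower bounds, shorter gaps and larger runs leave fewer positions by construction. For the other changes the cause was not tested. The classes of the authors and the share of runs with a lower mean were added after the data had been seen.

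A stricter coverage minimum was not run, because coverage was not used at these positions. No paired analysis was possible because each cell type had 1 library. Without replicates, no difference between wt and βerko MEFs can be set against the spread between cultures or animals.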
